A study of Mus musculus with 4 samples.

Results

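Lipid-associated macrophages are macrophages that gather around dying or lipid-laden cells and are described in adipose tissue, atherosclerotic plaques and tumours. The 10 genes Trem2, Cd36, Cd9, Gpnmb, Spp1, Apoe, Lpl, Lgals3, Fabp4 and Fabp5, commonly used to recognise this state, were chosen by name from the 32285 gene IDs of the count matrices, each symbol matching 1 ID. Unique molecular identifiers (UMIs, one per captured mRNA molecule) of each gene were summed per mouse and cell class. The cells came from prostate tumours of castrated mice. PCSp mice (2) carried alleles including PB-Cre, Chd1L/L and SpopF133V with the mTmG reporter, and PSp mice (2) carried the same alleles and reporter without Chd1L/L. Loss of Chd1, which encodes a chromatin remodeller, was therefore the labelled difference, whereas the mutant Spop allele and the other alleles were common to both genotypes. PB-Cre is a probasin promoter-driven recombinase active in prostate epithelium, so that the immune and stromal cells were not the cells in which the alleles were designed to recombine. Castration was done surgically at 9 months in both genotypes, and the whole tumours were collected 1 month after it. The comparison addresses what CHD1 does in Spop-mutant tumours.

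In this programme TREM2 is the cell-surface receptor that senses lipids and lipoproteins and signals through the adaptor TYROBP. CD36 takes up fatty acids and oxidised lipoproteins, and the tetraspanin CD9 organises membrane proteins. GPNMB is a transmembrane glycoprotein of lysosomes and melanosomes. Osteopontin (Spp1), apolipoprotein E (Apoe), lipoprotein lipase (Lpl) and galectin-3 (Lgals3) are released from the cell as a matrix-bound cytokine, a lipid carrier, a triglyceride-splitting enzyme and a lectin that also works inside the cell. FABP4 and FABP5 carry fatty acids in the cytoplasm. Several of these genes have other well-known homes, such as Fabp4 and Cd36 in capillary endothelium, so each gene was followed through every cell class of the tumours.

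The 5′ flanks of Gpnmb, Spp1 and Trem2 are printed because the first and second of these genes set the cluster described further on apart, while the third was spread over the macrophages. Each is the window upstream of the first RefSeq start site listed (build GRCm38.p6), 5′ to 3′ on the gene's strand, which is the plus strand for all 3, with matches to the searched motifs in capitals.
Gpnmb, chr6:49036268-49036517: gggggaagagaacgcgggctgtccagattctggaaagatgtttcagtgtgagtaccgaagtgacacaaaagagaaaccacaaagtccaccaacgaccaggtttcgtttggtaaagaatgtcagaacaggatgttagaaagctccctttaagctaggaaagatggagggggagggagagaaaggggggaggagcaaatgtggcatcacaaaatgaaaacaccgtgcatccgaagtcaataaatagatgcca
Spp1, chr5:104434861-104435110: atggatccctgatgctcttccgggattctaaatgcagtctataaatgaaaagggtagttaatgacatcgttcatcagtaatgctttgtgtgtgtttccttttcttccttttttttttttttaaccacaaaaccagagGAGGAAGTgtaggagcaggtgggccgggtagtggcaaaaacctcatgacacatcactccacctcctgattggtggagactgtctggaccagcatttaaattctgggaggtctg
Trem2, chr17:48346151-48346400: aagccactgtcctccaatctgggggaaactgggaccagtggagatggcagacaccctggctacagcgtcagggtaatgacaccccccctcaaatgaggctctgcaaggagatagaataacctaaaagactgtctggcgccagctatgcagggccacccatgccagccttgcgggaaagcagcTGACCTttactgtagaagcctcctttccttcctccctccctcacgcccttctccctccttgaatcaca
The motifs searched, on both strands, were short and no match overlapped another. They were CACGTG (the E-box bound by MiT/TFE factors, found in 6.02% of all 32851 promoter windows of that length), CATGTG (the M-box core, 12.3%), TGACTCA (AP-1, 4.46%), AGGTCA (nuclear receptor half-site, 14.0%) and GAGGAAGT (PU.1, 2.44%). The Spp1 window held GAGGAAGT 113 bases before the start. The Trem2 window held AGGTCA on the other strand, reading TGACCT as printed, 68 bases before the start. The Gpnmb window held no match. Among the other members with a RefSeq entry, Cd36 had AGGTCA at 228 bases and Cd9 had CATGTG at 38 bases before the start, and no match was found for Apoe or Lgals3. A promoter entry was found for 7 of the 10 members, not for Fabp4, Fabp5 or Lpl.

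The libraries held 90839725 and 66874620 UMIs in PCSp mice and 75339204 and 86435756 in PSp mice. After filtering, 7708 and 7883 PCSp cells and 5211 and 5900 PSp cells remained, 26702 in all, in 9 marker-defined classes. Pairs of libraries shared 11 to 27 barcodes. The labels name no separate litter or batch, and p-values refer to the spread between these 4 mice. The edgeR p-values also draw on the spread of other genes. In macrophages 6.24 degrees of freedom came from other genes, beside 2 from the gene itself. Chd1 itself stood at 59.7 and 56.4 CPM (UMIs per 1000000 UMIs of the class) in the epithelium of PCSp tumours, against 91.6 and 77.9 CPM in that of PSp tumours. In macrophages it stood at 58.0 and 74.7 CPM in PCSp, against 53.2 and 45.0 CPM in PSp. A 3′ tag may lie outside the deleted part of the gene, so this is only a partial check of the labels. The macrophage/monocyte class, called macrophages below, held 660 and 705 cells in PCSp mice and 360 and 437 in PSp mice, with 62 dendritic-like cells and 23 cells of a cluster led by epithelial genes included. It also held an unnamed cluster of 147 cells led by Retnla, Cd209a, S100a4, Ccl17 and Clec10a, and at a finer resolution 76 cells were type-2 conventional dendritic-like. All 12 of its marker genes were detected in it, summing to 17315 and 15593 CPM in PCSp and 18073 and 16712 CPM in PSp, while the summed markers of every other class stayed at or below 522 CPM.

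Trem2 was the most macrophage-restricted member. It stood at 517 and 518 CPM in PCSp macrophages and at 443 and 475 CPM in PSp macrophages. The next class, neutrophils, averaged 5.11 CPM (2.18 to 10.8 over 4 mice), and no UMI was found in glial or B/plasma cells. Macrophages held 87.6 to 92.8% of all Trem2 UMIs of a tumour. Apoe was also highest in macrophages. It measured 26061 and 20362 CPM in PCSp macrophages, against 32057 and 28521 CPM in PSp macrophages, and the next classes were glial cells (mean 4531 CPM) and fibroblasts (2668 CPM). Macrophages, with 2162 cells, held 53.3 to 63.9% of the Apoe UMIs, and the epithelium, with 12919 cells, 24.7 to 34.9%.

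Gpnmb and Spp1 were shared between macrophages and neutrophils, and the ranges of these classes overlapped. Gpnmb averaged 411 ± 142 CPM in macrophages and 205 ± 78.3 CPM in neutrophils (SD, n = 4 mice), and Spp1 averaged 1161 ± 483 CPM in macrophages and 863 ± 288 CPM in neutrophils. Neutrophils held 25.8 to 48.8% of the Spp1 UMIs of a tumour and 13.9 to 33.5% of those of Gpnmb. Fabp5 averaged 947 ± 478 CPM in macrophages, with neutrophils (393 CPM) and endothelium (322 CPM) after them, and the ranges of macrophages and neutrophils did not overlap. Lgals3 averaged 1593 ± 204 CPM in macrophages but 1474 CPM in epithelium, with overlapping ranges, and the epithelium held 85.6 to 90.9% of its UMIs.

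The other members peaked outside macrophages. Fabp4 averaged 8602 CPM in endothelium, 1079 CPM in smooth muscle and pericytes and 37.5 CPM in macrophages, and endothelium held 88.0 to 94.1% of its UMIs. Cd36 ranged from 415 to 1276 CPM in endothelium and from 79.6 to 116 CPM in macrophages. Both lay in the endothelial cluster led by Fabp4, Aqp1 and Sparc. With 647 of the 809 endothelial cells, it held 99.8 to 100% of the endothelial Cd36 UMIs. The other endothelial cluster, with Ccl21a, Lyve1, Mmrn1 and Prox1 among its leading genes, which are known from lymphatic vessels, had 0 to 42.5 CPM of Fabp4. Lpl averaged 233 CPM in fibroblasts, 195 CPM in macrophages and 162 CPM in endothelium, with overlapping ranges. The largest fibroblast cluster, with 2260 of the 3256 fibroblasts, held 89.2 to 95.2% of the fibroblast Lpl UMIs. Cd9 was highest in glial cells (3397 CPM) and neutrophils (2054 CPM), and macrophages, at 307 CPM, ranked 7th of 9 classes.

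**Figure D1:**
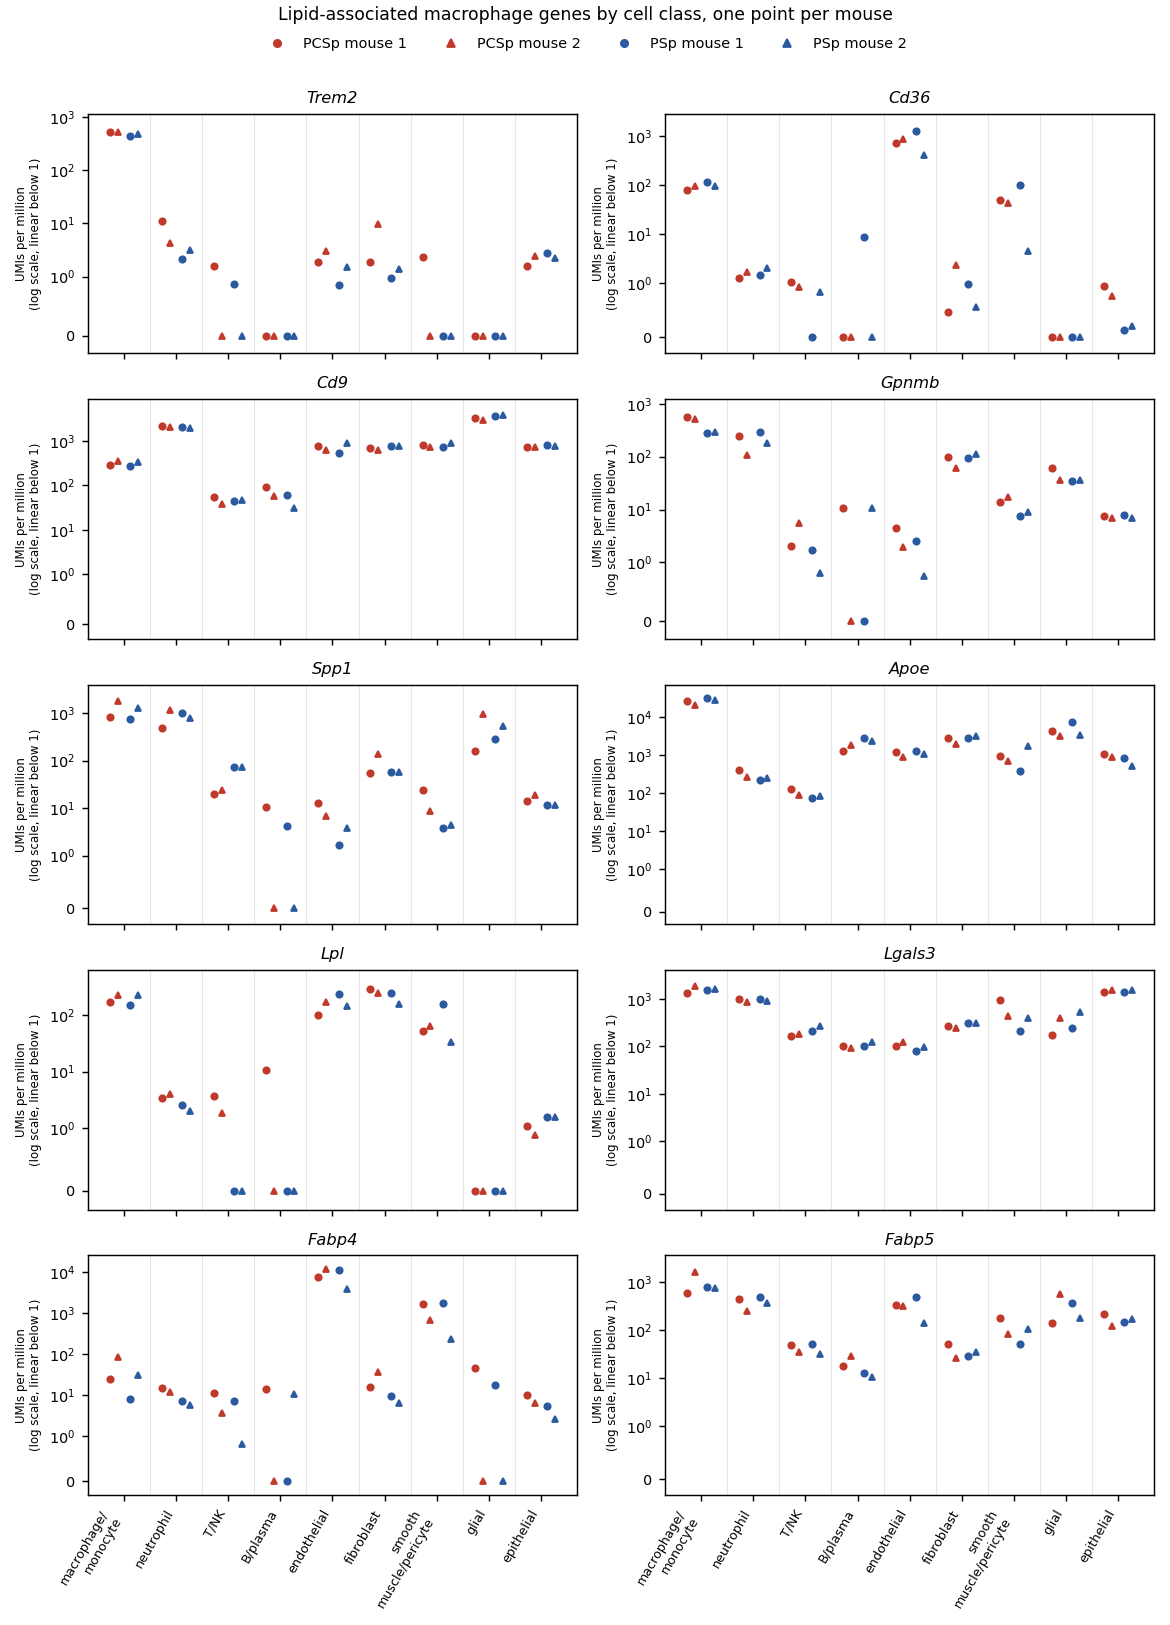
Level of each member (CPM, log scale, linear below 1) in 9 cell classes, with red points for the PCSp mice and blue points for the PSp mice (2 of each). Trem2 stands at 443 to 518 in macrophages and at or below 10.8 elsewhere, while Fabp4 and Cd36 are highest in endothelium and Cd9 in glial cells.

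The share of macrophages with a UMI of each gene was counted after thinning each cell to 1000 UMIs, which left out shallower cells and kept 484 and 535 PCSp cells and 283 and 318 PSp cells. Averaged over the mice, 87.0% of macrophages had an Apoe UMI, against 8.27% of T/NK cells, and 49.6% had a Lgals3 UMI, against 13.3 to 18.3% of the T/NK cells of a mouse. Trem2 was found in 25.3% of macrophages, against 0.062% of T/NK cells, which should lack it. Cd9 was found in 16.7% of macrophages and 4.87% of T/NK cells, Fabp5 in 9.96 and 3.73%, Lpl in 8.55 and 0.152%, Spp1 in 7.45 and 2.19% and Cd36 in 5.84 and 0.110%. Gpnmb was found in 2.31% and Fabp4 in 1.30%, against 0.235% and 0.609% of T/NK cells. Per mouse, Gpnmb was found in 1.72 and 3.70% of PCSp macrophages and in 1.68 and 2.16% of PSp macrophages, so that the genotypes overlapped (exact permutation p = 0.667), where 2 mice against 2 cannot give a p below 0.333. Apoe, Cd9, Cd36 and Fabp4 reached that p at this depth, since the genotypes did not overlap. Mice that differ only by chance separate in this way at a rate of 0.333 per gene. The share over all genes was not counted, so nothing is read from the number of members that did. The shares were 85.9 and 85.9% in PCSp and 89.6 and 86.7% in PSp for Apoe, and 17.6 and 13.01% in PCSp and 18.4 and 17.7% in PSp for Cd9. They were 1.54 and 2.00% in PCSp and 1.11 and 0.542% in PSp for Fabp4. Those of Cd36 were 6.49 and 5.83% in PCSp and 5.33 and 5.72% in PSp, and no order is read from them, because its fold change in CPM was negative. After thinning to 2000 UMIs the genotypes overlapped for Apoe, Cd9 and Cd36, but not for Fabp4 and Lpl. In unthinned cells they overlapped for Apoe and Fabp4, and Cd36 was lower in PCSp. No member thus kept the genotypes apart at every depth. Without thinning, the shares of macrophages were 92.1% for Apoe, 69.0% for Lgals3, 44.8% for Trem2, 14.6% for Spp1, 3.54% for Gpnmb and 3.93% for Fabp4. Median depth was 2816.5 and 3404 UMIs in PCSp macrophages and 2756.5 and 2657 in PSp macrophages, and 4578 and 3365 in PCSp T/NK cells and 5200.5 and 5001 in PSp T/NK cells. Gpnmb and Spp1 thus gave high sums from few cells, unlike Apoe and Trem2.

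The macrophage class was clustered again without the 10 members among the variable genes, giving 14 clusters. Among them a cluster of the C1q-macrophage-like type, led by Gpnmb, Spp1, Atp6v0d2, Fabp5 and Mfge8, held 31 of the 2162 cells and most of the class's Gpnmb, Spp1 and Fabp5. Its name rested on 3 of 7 markers of that type. At the finer resolution a cluster of 33 cells led by Gpnmb, Spp1 and Atp6v0d2 stayed unnamed. The cluster of 31 cells had 6 and 18 cells in PCSp mice and 3 and 4 cells in PSp mice. That is 0.909 and 2.55% of PCSp macrophages (exact Clopper-Pearson 95% intervals 0.334 to 1.97% and 1.52 to 4.01%), against 0.833 and 0.915% of PSp macrophages (0.172 to 2.42% and 0.250 to 2.33%). The intervals cover counting error only, and the genotypes overlapped. On the log2 scale the share differed by 0.97 ± 0.69 (SE; edgeR on cell numbers, adjusted p = 0.712 over 14 clusters; exact two-sided permutation p = 0.667, where 2 mice against 2 cannot go below 0.333). Without 1 mouse that difference ran from 0.05 (second PCSp mouse left out) to 1.51 (first PCSp mouse left out). By the edgeR test 0 of the 14 clusters differed in share, with 1 at an unadjusted p below 0.05.

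The levels inside this cluster, which was singled out for its leading genes, are given as a description without a test. Gpnmb stood at 10366 and 4059 CPM in the cluster in PCSp mice and at 5591 and 5219 CPM in PSp mice, against 7.44 and 19.0 CPM (PCSp) and 19.7 and 20.1 CPM (PSp) in the other macrophages. The cluster held 93.4 to 98.7% of the macrophage Gpnmb UMIs, 79.7 to 86.4% of the Spp1 UMIs and 64.2 to 87.6% of the Fabp5 UMIs, with 4.74 to 12.2% of all UMIs of the class. Spp1 stood at 13851 and 12581 CPM in PCSp and 13161 and 18862 CPM in PSp, against 121 and 303 CPM (PCSp) and 124 and 269 CPM (PSp) in the other macrophages. These 3 genes marked the cluster by 214- to 1393-fold (Gpnmb), 41.5- to 114-fold (Spp1) and 32.1- to 89.9-fold (Fabp5) over the other macrophages.

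The remaining members separated it less. Trem2 reached 2722 and 1723 CPM in PCSp and 2884 and 1567 CPM in PSp, which is 3.79- to 8.98-fold above the other macrophages, and the cluster held 17.4 to 40.7% of the macrophage Trem2 UMIs. Lgals3 was 5.26- to 7.39-fold higher, and Lpl, with a UMI in 22 of the 31 cells, 2.30- to 9.48-fold. Cd36 was 4.22- to 18.7-fold higher but had a UMI in only 18 of the 31 cells. Its lowest fold, in the first PCSp mouse, came from 1 cell that held all 58 UMIs, and its highest, in the first PSp mouse, from 146 UMIs of which 1 cell held 99.3%. Fabp4 was 3.35- to 215-fold higher, with 24.2 CPM in the lowest mouse, from 3 UMIs of 1 cell. The fold of Cd9 ranged from 0.874 to 11.8 and that of Apoe from 0.639 to 1.64, so neither was higher in all 4 mice. Of 32 macrophages with at least 10 Gpnmb UMIs, 25 lay in the cluster, 27 had at least 10 Spp1 UMIs, 31 had at least 10 Fabp5 UMIs and all 32 had a Trem2 UMI. Conversely, 3 of the 31 cells of the cluster had no Gpnmb UMI, and 29 of 73 macrophages with at least 10 Spp1 UMIs lay in it.

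**Figure D2:**
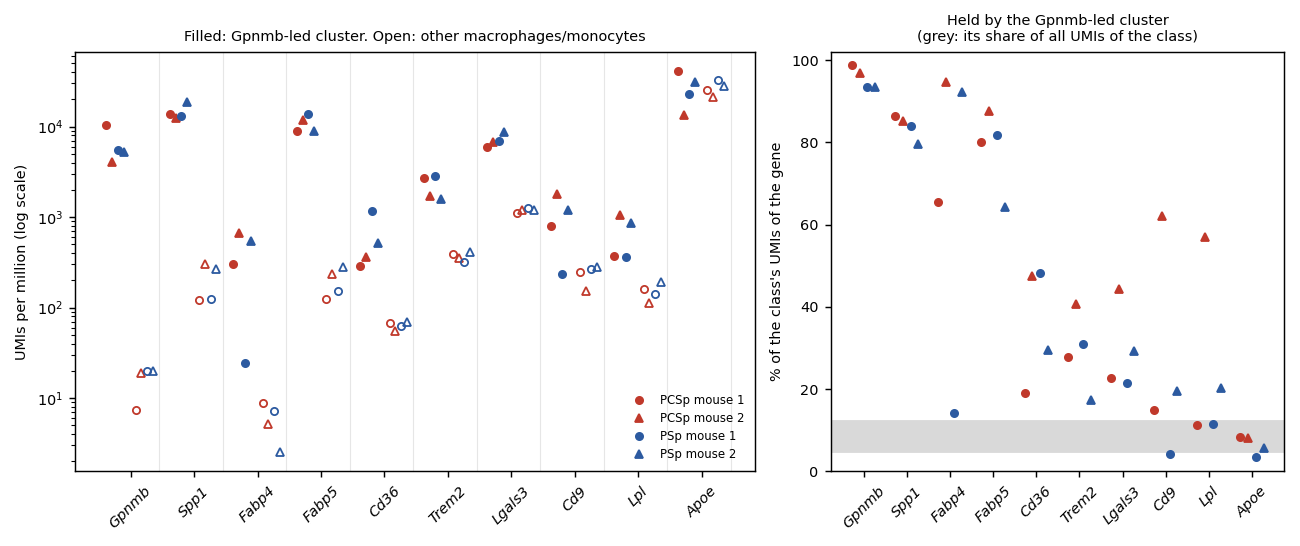
Left, level of each member (CPM, log scale) in the Gpnmb-led cluster (filled) and in the other macrophages (open), red for PCSp and blue for PSp mice; right, percentage of the macrophage UMIs of each gene held by the cluster, with its 4.74 to 12.2% share of all UMIs in grey. The cluster holds 93.4 to 98.7% of the Gpnmb UMIs and 3.39 to 8.34% of those of Apoe.

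The cells of this cluster held many UMIs. Their median was 24526 UMIs, against 2954 in the other macrophages, and their median doublet score was 0.0707, against 0.0346. In the first PSp mouse, 1 cell of 101891 UMIs gave 82.3% of the cluster's UMIs and 97.4% of its Gpnmb. Markers of dendritic and glial cells were at 0, as were 8 of the 10 T/NK markers, among them Cd3d, Cd3e, Cd3g and Trac, whereas Il7r stood at 436 and 470 CPM in PCSp and 485 and 606 CPM in PSp. Epithelial markers summed to 149 and 164 CPM in PCSp and 137 and 129 CPM in PSp, and neutrophil markers to 193 and 323 CPM in PCSp and 32.3 and 19.4 CPM in PSp. The part of depth and doublets in the cluster's profile was not tested.

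Levels of genes of the lysosome and of lipid storage in the cluster are likewise given as a description. Of the 24 genes listed for these functions, 16 were at least 2-fold higher in the cluster than in the other macrophages in all 4 mice, against 3.06% of the 5028 genes compared, with a list median of 1.73 on the log2 scale against -0.19 for all genes. Nothing is read from that contrast, because these genes were among those clustered, Ctsl, Atp6v0d2 and Mmp12 are among the 10 leading genes that singled the cluster out, and a gene as low outside it as Atp6v0d2 was compared only because it is high inside it. Ctsl, a lysosomal cysteine protease, stood at 8859 to 29691 CPM in the cluster and at 261 to 325 CPM outside it. Atp6v0d2, a subunit of the proton pump that acidifies lysosomes, stood at 788 to 1297 CPM against 1.08 to 8.36 CPM, and Mmp12, the macrophage elastase, at 2057 to 5193 CPM against 65.1 to 214 CPM. Ctsd, Creg1, Cd68, Plin2, Lipa, Msr1, Lgals1 and Soat1 were also among the 16. Of the MiT/TFE, LXR and PPAR regulators, 1 of 9 compared, Bhlhe41, passed that fold, at 88.9 to 226 CPM against 18.7 to 23.98 CPM. None of 8 TREM2 adaptor and signalling genes, 7 osteopontin receptor genes, 3 Apoe partners, 8 Lpl partners or 7 resident-type macrophage genes did so, and the resident-type list had a median of -1.88, with Mgl2 at 0 CPM in the cluster and 84.5 to 235 CPM outside it. Its members were not uniform. Gas6, a ligand of the TAM receptors, stood at 387 and 36.9 CPM in the cluster in PCSp and 428 and 206 CPM in PSp, against 114 and 129 CPM (PCSp) and 112 and 69.8 CPM (PSp) outside it, and Folr2 and F13a1 were also higher in the cluster in the first PSp mouse.

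Among the other myeloid clusters, Trem2 and Apoe were widespread. The largest C1q-macrophage-like cluster had Trem2 at 629 and 746 CPM in PCSp and 578 and 612 CPM in PSp, and Apoe at 46785 and 42901 CPM in PCSp and 59641 and 52994 CPM in PSp. The larger Retnla-macrophage-like cluster had 239 to 275 CPM of Trem2, and monocyte-like cells 19.9 to 89.7 CPM. The 2 clusters named dendritic-like had no Trem2 UMI and at most 111 CPM of Apoe, and the unnamed cluster led by Retnla, Cd209a, S100a4, Ccl17 and Clec10a had Trem2 at 15.8 and 50.9 CPM in PCSp and 20.5 and 20.2 CPM in PSp, and Apoe at 143 to 1399 CPM. Cd36 was at 266 and 119 CPM in PCSp and 153 and 174 CPM in PSp in that Retnla-macrophage-like cluster, whose Cd9 (26.8 to 95.4 CPM) and Lgals3 (286 to 469 CPM) were low. Mature dendritic-like cells had Fabp5 at 1306 and 4054 CPM in PCSp and 3343 and 2353 CPM in PSp.

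Gpnmb, Spp1 and Fabp5 were concentrated in a part of the neutrophils too, but a larger part than the 31 of 2162 macrophages above. A cluster of 1665 of the 5955 neutrophils was led by Ccl3, Ccl4, Il1b, Ccrl2 and Cxcl2. These encode chemokines, a cytokine and a chemokine receptor-like protein. The cluster held 92.9 to 95.8% of the neutrophil Gpnmb UMIs, 55.5 to 73.1% of the Spp1 UMIs and 59.7 to 85.4% of the Fabp5 UMIs. In it, Gpnmb stood at 710 and 430 CPM in PCSp and 816 and 572 CPM in PSp, and Spp1 at 847 and 2766 CPM in PCSp and 2236 and 1787 CPM in PSp. The genotypes overlapped for both. Cd9, in contrast, was spread over the neutrophil clusters. Trem2 was at 17.9 and 4.66 CPM in PCSp and 0 and 0.95 CPM in PSp, and the macrophage markers summed to 164 and 164 CPM in PCSp and 134 and 111 CPM in PSp, against 15593 to 18073 CPM in macrophages. Its neutrophil markers summed to 8367 and 10764 CPM in PCSp and 9145 and 7069 CPM in PSp, below the other neutrophil clusters (23168 to 50743 CPM). Markers of other classes were found in it too. The highest epithelial marker, Krt19, stood at 227 and 229 CPM in PCSp and 153 and 204 CPM in PSp. The fibroblast marker Dcn stood at 134 and 136 CPM in PCSp and 82.8 and 88.6 CPM in PSp.

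The genotypes were compared in macrophages over the 4 mice. Gpnmb stood at 553 and 514 CPM in PCSp macrophages and at 284 and 295 CPM in PSp macrophages, so the groups did not overlap. Its log2 fold change was 0.85 ± 0.11 (SE), with adjusted p = 0.0604 by edgeR's quasi-likelihood test over 10092 genes and adjusted p = 8.1e-05 by DESeq2. Few cells carried these sums. The Gpnmb-led cluster held 93.4 to 98.7% of the macrophage Gpnmb UMIs. In the PSp mice 1 cell gave 97.4% (first mouse) and 61.9% (second mouse) of the cluster's Gpnmb UMIs. In the PCSp mice 1 cell gave at most 37.5%. The close PSp values, and the SE and p-values that draw on them, thus rested on few cells. Fewer cells of a type and less RNA per cell cannot be told apart in such sums. It was called by edgeR without the first PSp mouse (0.81, adjusted p = 0.00660) and without the second (0.88, adjusted p = 0.00456). Without the Gpnmb-led cluster the direction of the difference turned, with a log2 fold change of -0.67 ± 0.36 (edgeR adjusted p = 0.867), the other macrophages holding 7.44 and 19.0 CPM in PCSp and 19.7 and 20.1 CPM in PSp.

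None of the 10 members passed edgeR's test in macrophages, where 0.0694% of all genes did, 2 had an unadjusted p below 0.05 (Gpnmb and Apoe), against 589 of 10092 genes, and DESeq2 called 1 (Gpnmb). Of the members, 8 had positive and 2 negative fold changes, with a median of 0.09 against 0.00 for all genes. Apoe was at 26061 and 20362 CPM in PCSp and 32057 and 28521 CPM in PSp, without overlap (log2 fold change -0.42 ± 0.16, edgeR adjusted p = 0.801). Trem2 likewise did not overlap, at 517 and 518 CPM in PCSp and 443 and 475 CPM in PSp, but its log2 fold change was 0.14 ± 0.11 (edgeR adjusted p = 0.930). The share of all genes whose CPM did not overlap between the genotypes was not counted. Spp1 was at 844 and 1807 CPM in PCSp and 742 and 1251 CPM in PSp, and Fabp5 at 594 and 1653 CPM in PCSp and 798 and 744 CPM in PSp, so 1 PCSp mouse was high for both. That mouse also had the largest Gpnmb-led cluster (18 cells) and the most Fabp4, at 24.3 and 86.6 CPM in PCSp against 8.04 and 31.0 CPM in PSp. The log2 fold changes were 0.37 ± 0.34 (Spp1), 0.50 ± 0.37 (Fabp5) and 1.42 ± 0.64 (Fabp4). Without the second PCSp mouse, those of Spp1 and Fabp5 turned to -0.26 and -0.40, and without the second PSp mouse Fabp4 was called (2.73, edgeR adjusted p = 0.0371).

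The remaining members differed less. Cd36 stood at 79.6 and 93.1 CPM in PCSp macrophages, against 116 and 92.7 CPM in PSp macrophages, with a log2 fold change of -0.31 ± 0.14. Cd9 stood at 278 and 354 CPM in PCSp and 266 and 328 CPM in PSp, Lpl at 173 and 229 CPM in PCSp and 151 and 227 CPM in PSp, and Lgals3 at 1372 and 1863 CPM in PCSp and 1540 and 1596 CPM in PSp. Their ranges overlapped and their log2 fold changes were 0.05 ± 0.15, 0.04 ± 0.20 and 0.00 ± 0.15.

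**Figure D3:**
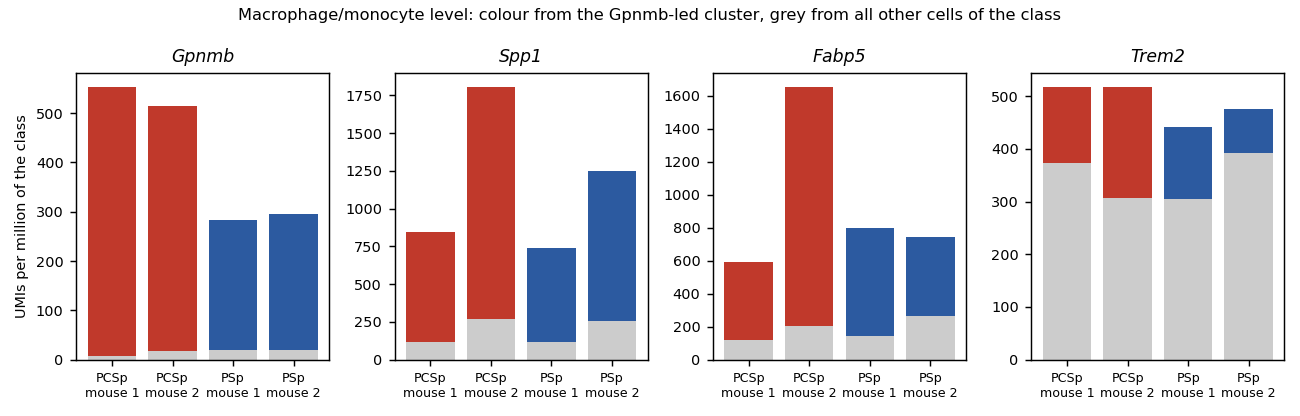
Level of Gpnmb, Spp1, Fabp5 and Trem2 in all macrophages of each mouse (CPM of the class), with the part from the Gpnmb-led cluster in colour (red PCSp, blue PSp) and the part from all other macrophages in grey. The PCSp mice have the taller Gpnmb bars (553 and 514, against 284 and 295), and nearly all of each bar is from the cluster, whereas most of each Trem2 bar is not.

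Within single macrophage clusters large enough to test, the largest C1q-macrophage-like cluster and 2 unnamed clusters of low depth, 0 of 9, 0 of 5 and 0 of 7 members passed edgeR's test, where 0.0587%, 0.101% and 0.682% of genes did; 2, 2 and 1 had an unadjusted p below 0.05, against 443 of 6814, 78 of 988 and 125 of 1612 genes, and DESeq2 called 0 in each. In the C1q-macrophage-like cluster these were Cd9 (log2 fold change -0.58 ± 0.17, edgeR adjusted p = 0.508) and Apoe (-0.40 ± 0.12, edgeR adjusted p = 0.505).

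The partner genes were tested in the same fit. None of the TREM2 adaptor and signalling genes (8 tested), the lysosome and lipid storage genes (24), the regulators (12), the osteopontin receptors (7), the Apoe partners (8), the Lpl partners (12) or the resident-type genes (10) passed edgeR's test in macrophages; 1, 3, 0, 1, 0, 2 and 1 had an unadjusted p below 0.05, and DESeq2 called 1, Mgll, which encodes the lipase that splits monoglycerides. Mgll stood at 10.7 and 30.2 CPM in PCSp and 2.30 and 4.09 CPM in PSp (log2 fold change 2.59 ± 0.57, edgeR adjusted p = 0.401). In the Gpnmb-led cluster Mgll was at 159 and 217 CPM in PCSp and 0 and 25.8 CPM in PSp. The other macrophages had 2.48 and 4.18 CPM in PCSp and 2.41 and 2.88 CPM in PSp, which overlap. Of the 24 lysosome and lipid storage genes, 7 had positive and 17 negative fold changes, with a median of -0.06. Lgmn, a lysosomal endopeptidase, was at 747 and 774 CPM in PCSp and 903 and 944 CPM in PSp. Pik3ap1, an adaptor of PI3-kinase, was at 116 and 90.0 CPM in PCSp and 158 and 120 CPM in PSp, and Itgb5, an osteopontin-binding integrin subunit, at 215 and 201 CPM in PCSp and 239 and 252 CPM in PSp. Cd163, the haemoglobin scavenger receptor, was at 49.1 and 24.8 CPM in PCSp and 21.1 and 10.6 CPM in PSp (log2 fold change 1.21 ± 0.39). Mitf, a transcription factor of pigment cells, osteoclasts and macrophages, was at 21.4 and 27.4 CPM in PCSp and 19.1 and 19.1 CPM in PSp.

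Outside macrophages 1 member was called. Spp1 fell in T/NK cells of PCSp tumours, with 19.8 and 23.9 CPM in PCSp and 74.1 and 74.3 CPM in PSp, from 38 and 26 UMIs in PCSp and 85 and 90 UMIs in PSp. The groups did not overlap, and the log2 fold change was -1.84 ± 0.21 (edgeR adjusted p = 0.00216, DESeq2 adjusted p = 0.000312). It was the 1 of 5 members called in this class, where 0.37% of 7829 genes were called. The other 4 members tested there were Cd9, Apoe, Lgals3 and Fabp5, of which Lgals3 had a log2 fold change of -0.54 ± 0.13 (edgeR adjusted p = 0.171) and Apoe of 0.48 ± 0.17 (edgeR adjusted p = 0.442).

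Few cells carried these UMIs. Cells with at least 10 Spp1 UMIs numbered 0 and 1 in PCSp and 3 and 4 in PSp, and held 0 and 11 UMIs in PCSp and 63 and 64 UMIs in PSp. The other T/NK cells held 38 and 15 UMIs in PCSp and 22 and 26 UMIs in PSp, which overlap. Cells with any Spp1 UMI made up 6.42 and 4.29% of PCSp T/NK cells and 5.85 and 6.36% of PSp T/NK cells, and after thinning to 1000 UMIs 1.70 and 1.66% in PCSp and 2.67 and 2.76% in PSp (exact permutation p = 0.333, the smallest possible).

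Of the 3 T/NK clusters, 1 of 216 cells led by Ccl5, Gzma, Gzmc, Gzmb and Xcl1, among which are granzyme genes of killer cells, held 44.7 and 73.1% of the Spp1 UMIs of the class in PCSp and 96.5 and 84.4% in PSp. In it Spp1 stood at 54.9 and 83.7 CPM in PCSp and 223 and 193 CPM in PSp, and the cluster made up 15.1 and 17.5% of PCSp T/NK cells and 23.9 and 25.9% of PSp T/NK cells. Its macrophage markers (10 of 12 with a UMI) summed to 291 and 225 CPM in PCSp and 321 and 183 CPM in PSp. Most of this was Ccr2, at 197 and 52.9 CPM in PCSp and 54.5 and 58.4 CPM in PSp, and Ly6c2, at 67.8 and 141 CPM in PCSp and 240 and 107 CPM in PSp, which lymphocytes can also express. C1qa stood at 5.08 to 17.6 CPM and C1qb at 5.08 to 12.9 CPM, and Mrc1 was at 0. Epithelial markers summed to 533 and 502 CPM in PCSp and 349 and 539 CPM in PSp. Spp1 UMIs per Apoe UMI were 0.156 and 0.265 in PCSp T/NK cells and 1.02 and 0.909 in PSp T/NK cells, against 0.0324 and 0.0887 in PCSp macrophages and 0.0231 and 0.0439 in PSp macrophages. Per S100a8 UMI, a neutrophil transcript, they were 1.03 and 1 in PCSp T/NK cells and 6.07 and 6.92 in PSp T/NK cells, against at most 0.0996 over all neutrophils of any mouse. The neutrophil cluster led by Ccl3 had S100a8 at 3746 and 4538 CPM in PCSp and 3564 and 3098 CPM in PSp. With its Spp1 levels given above, its Spp1 per S100a8 was higher than that of all neutrophils. The Gpnmb-led macrophage cluster had Apoe at 41245 and 13609 CPM in PCSp and 22937 and 30776 CPM in PSp, beside Spp1 at 13851 and 12581 CPM in PCSp and 13161 and 18862 CPM in PSp. Its Spp1 per Apoe was thus higher than that of all macrophages in every mouse. The part of RNA from other cells in this result was not tested.

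Among the partner lists, 1 of the 6 TREM2 adaptor and signalling genes tested was called in T/NK cells, against 0.37% of all genes. None of the 18 lysosome and lipid storage genes, 5 regulators, 5 osteopontin receptors, 1 Apoe partner, 6 Lpl partners and 2 resident-type genes tested was called by edgeR or DESeq2, which gave no adjusted p for 2 of the regulators and 2 of the Lpl partners. In the order given, 1, 1, 1, 3, 0, 0 and 2 genes of the lists had an unadjusted p below 0.05, against 653 of 7829 genes. Tyrobp, the adaptor of TREM2 and of several natural killer cell receptors, fell in PCSp, at 327 and 302 CPM in PCSp and 478 and 614 CPM in PSp (log2 fold change -0.85 ± 0.13, edgeR adjusted p = 0.0166, DESeq2 adjusted p = 0.000123). Of the Tyrobp UMIs of T/NK cells, the granzyme-rich cluster held 601 of 627 and 306 of 329 in PCSp mice. In PSp mice it held 534 of 549 and 716 of 744. That cluster made up 15.1 and 17.5% of PCSp T/NK cells and 23.9 and 25.9% of PSp T/NK cells. The part of its share in the lower Tyrobp level of the class was not tested. In that cluster alone, chosen after the values were seen, Tyrobp was at 1941 and 1348 CPM in PCSp and 1455 and 1819 CPM in PSp, which overlap. Trem2 itself had 3 and 0 UMIs in PCSp and 1 and 0 UMIs in PSp in the whole T/NK class.

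**Figure D4:**
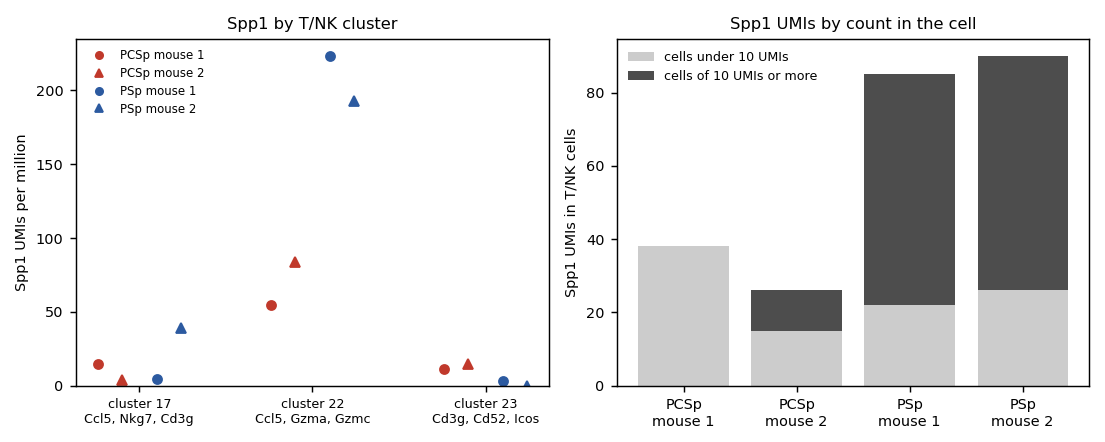
Left, Spp1 level (CPM) in each of 3 T/NK clusters, red for PCSp and blue for PSp mice; right, Spp1 UMIs of T/NK cells per mouse, split into cells under 10 UMIs (light) and cells of 10 UMIs or more (dark). The PSp mice lie higher in the granzyme-rich cluster 22 (223 and 193, against 54.9 and 83.7 in PCSp), and 63 and 64 of their UMIs come from cells of 10 or more.

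In the other classes no member was called by edgeR or DESeq2. In neutrophils 0 of 9 members passed edgeR's test (0.0876% of genes did), DESeq2 gave no adjusted p for Lpl, and 3 had an unadjusted p below 0.05, against 823 of 9137 genes. These were Fabp4, at 15.2 and 12.2 CPM in PCSp and 7.25 and 5.67 CPM in PSp (log2 fold change 1.05 ± 0.30, edgeR adjusted p = 0.339), Apoe (0.45 ± 0.18, edgeR adjusted p = 0.467) and Trem2 (1.42 ± 0.50, edgeR adjusted p = 0.399), the last from 35 and 16 UMIs in PCSp and 6 and 11 UMIs in PSp. In epithelium 0 of 10 passed, as did 0% of genes, and 4 had an unadjusted p below 0.05, against 1298 of 16468 genes, led by Cd36. Epithelial Cd36 was below 1 CPM throughout, with 59 and 34 UMIs in PCSp and 7 and 13 UMIs in PSp (log2 fold change 2.31 ± 0.38, edgeR adjusted p = 0.383), and 2 cells of at least 10 UMIs held 32 and 14 of the PCSp UMIs. In fibroblasts 0 of 8 passed and 1 (Fabp4, log2 fold change 1.66 ± 0.42) had an unadjusted p below 0.05, and in endothelium 0 of 7 passed and 0 had. Over all genes 0% were called in either class, and 457 of 12156 (fibroblasts) and 564 of 9141 (endothelium) had such an unadjusted p.

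Fabp4 in endothelium, its main site, stood at 7438 and 11670 CPM in PCSp and 11433 and 3869 CPM in PSp, and Cd36 at 713 and 878 CPM in PCSp and 1276 and 415 CPM in PSp. The genotypes overlapped for both, and the second PSp mouse was the lowest for each. The stromal members sat in separate fibroblast clusters. The fibroblast cluster led by Dcn, Apod, Lum, Clec3b and Serping1 had Lpl at 412 and 434 CPM in PCSp and 354 and 229 CPM in PSp. The cluster led by Dcn, Igfbp3, Igfbp6, Inmt and Matn2 had Apoe at 8663 and 9049 CPM in PCSp and 9854 and 7917 CPM in PSp. The cluster led by Mgp, Sparc, Cxcl14, Bgn and Col1a2, with 400 of the 3256 fibroblasts, held 83.4 to 97.0% of the fibroblast Spp1 UMIs. Lpl in all fibroblasts stood at 284 and 247 CPM in PCSp and 249 and 154 CPM in PSp (log2 fold change 0.38 ± 0.22, edgeR adjusted p = 0.999).

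**Figure D5:**
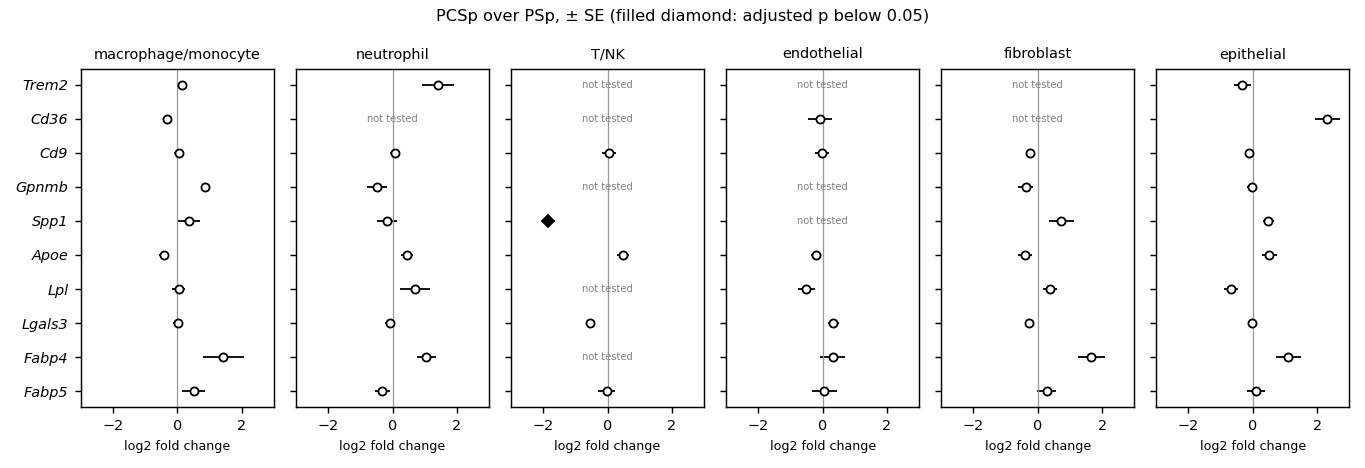
Log2 fold change of each member, PCSp over PSp, with its SE, in 6 cell classes; filled diamonds mark an edgeR adjusted p below 0.05 and members with too few UMIs are marked as not tested. Spp1 in T/NK cells, at -1.84 ± 0.21, is the only filled point, and Gpnmb in macrophages stands at 0.85 ± 0.11.

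Whether the genotype effect differed between macrophages and another class was tested directly, with the mouse as a block. The effect on Spp1 was higher in macrophages than in T/NK cells, by 2.09 ± 0.27 on the log2 scale (edgeR adjusted p = 0.00627); this was 1 of 10 members, where 0.0188% of genes were called. Against epithelium 2 of 10 were called, Gpnmb (0.88 ± 0.12, edgeR adjusted p = 0.0366) and Cd36 (-2.62 ± 0.35, edgeR adjusted p = 0.0366), where 0.0255% of genes were called. Against fibroblasts 1 of 10 was called, Gpnmb (1.28 ± 0.21, edgeR adjusted p = 0.0196), with a background of 0.0937%. Both differences of Gpnmb turned to -0.68 (epithelium) and -0.30 (fibroblasts) without the Gpnmb-led cluster, and the difference of Spp1 was then 1.77 (edgeR adjusted p = 0.107). The Gpnmb difference from epithelium was not called without the first PCSp mouse (0.87, adjusted p = 0.104) or the second (0.94, adjusted p = 0.0715). That from fibroblasts was not called without the first PCSp mouse (1.53, adjusted p = 0.0609), the second PCSp mouse (1.01, adjusted p = 0.866) or the second PSp mouse (1.12, adjusted p = 0.120). Against endothelium and neutrophils 0 of 10 members passed edgeR's test (backgrounds of 0.07% and 0.0453%), with 1 and 4 at an unadjusted p below 0.05, against 599 of 11423 and 622 of 11026 genes; DESeq2 was not run on these differences.

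Over the 24 sums of 6 classes and 4 mice, which share libraries, the genes whose log2 level followed each member most closely among 9131 genes are given as a description. Trem2 was closest to C1qa (Pearson r 0.98), F13a1 and Lilra5. Gpnmb was closest to Uap1l1 (0.97), Snx30 (0.95) and Creg1 (0.94), and Spp1 to Irf5 (0.95), Soat1 and Creg1 (0.92 each). Creg1 and Soat1 are on the lysosome and lipid storage list and belong to the 16 genes high in the Gpnmb-led cluster. Apoe was closest to Asah1 (0.96), Fabp5 to Fes (0.90), Lpl to Lifr (0.96), Lgals3 to Pak1 (0.97) and Cd9 to Pdlim7 (0.98). Cd36 was closest to Rasgrp3 (0.99) and Fabp4 to Notch4 (0.97), which encodes an endothelial receptor.

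On GRCm38 (GENCODE M21) Fabp4 and Fabp5 lie near each other on chromosome 3, whereas Cd36 and Spp1 on chromosome 5 and Cd9 and Gpnmb on chromosome 6 lie far apart, and the other members each have a chromosome of their own. Trem2 lies at chr17:48346401-48354147, Gpnmb at chr6:49036546-49070929, Spp1 at chr5:104435118-104441050, Lgals3 at chr14:47367751-47386160, Fabp5 at chr3:10012548-10016607 and Lpl at chr8:68880491-68907448, all on the plus strand. Apoe lies at chr7:19696109-19699188, Cd9 at chr6:125460266-125494791, Cd36 at chr5:17781690-17888801 and Fabp4 at chr3:10204088-10208576, all on the minus strand. Fabp4 and Fabp5 are paralogs on chromosome 3, and their levels by class differed as given above. How the counting treated reads shared with pseudogene copies of Fabp5 is not given in the sources used here.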

How the data were processed

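Per the labels, tumours were dissociated with collagenase A and trypsin, red cells were lysed, and 10x Genomics 3′ V3 libraries were made from 4 mice. The deposited values are UMI counts per gene and barcode, made by the authors against mm10 using Cell Ranger 6.1.2, per the submitters' processing notes, with no normalization. Barcodes with at least 300 genes and 500 UMIs and at most 20% mitochondrial UMIs were kept, and 545 and 572 PCSp and 237 and 308 PSp barcodes of highest Scrublet score (0.8% per 1000 barcodes) were removed, because the automatic threshold marked 2 and 0 PCSp and 0 and 0 PSp barcodes. Cells were clustered (scanpy 1.11.5; 2000 variable genes without the 10 members, 30 components, 15 neighbours, Leiden resolution 1) and named from marker lists. The cells clustered as macrophages were clustered again in the same way. Chi-square tests between library pairs gave 44.0 to 130 for each degree of freedom, above sampling noise. Such values mean only that the counts differed between libraries. They cannot tell separate mice from separate preparations of the same tumour. Counting each library as 1 mouse therefore rests on the labels.

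Counts were summed per mouse and class and tested with edgeR 4.0.16 (R 4.3.3; quasi-likelihood F-test, TMM, filterByExpr, Benjamini-Hochberg over all genes tested, adjusted p below 0.05), with DESeq2 1.42.0 as the alternative. Classes with at least 50 cells in every mouse (6 of 9) were tested. Differences between classes were tested in a model with mouse, class and their interaction with genotype. Filtering on low counts left 5 to 10 members testable in a class. CPM is UMIs per 1000000 UMIs of the class; fold comparisons of the cluster added 10 CPM to both sides where log2 values are given. The macrophage test was checked on simulated counts. With a simulated log2 fold change of 0.5, only 2 of 50 altered genes passed. With 1 it was 38 of 50, with 2 all 50, and with -1 it was 30 of 46. There were 4 false calls, with 9866 genes in the simulation. Changes near 0.5 would thus mostly be missed, so a member that did not pass may still differ by that much.

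The members and partner lists were chosen with earlier results of these data known. The rule for named genes took all members, the 3 of smallest p of each list in macrophages, the 3 most correlated with each member and the 5 leading genes of a cluster. List genes named inside the Gpnmb-led cluster, Tyrobp, Mitf and the endothelial cluster genes beyond the first 5 were chosen after their values were seen. Sequences are from RefSeq (GRCm38.p6); 32158 of 32285 gene IDs were found in GENCODE M21. Confidence intervals are exact at 95%. A few items, among them a gene of the shared genotype, are not reported here.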

Additional observations from a re-analysis of the deposited data

Results flagged for a closer look

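The genotype effect on 3 members differed between macrophages and another class by edgeR's interaction test. The effect on Spp1 in macrophages minus that in T/NK cells was 2.09 ± 0.27 (log2; adjusted p = 0.00627), with Spp1 lower in both PCSp mice than in both PSp mice in T/NK cells and overlapping in macrophages; 8 T/NK cells held 0 and 11 of the 38 and 26 PCSp UMIs and 63 and 64 of the 85 and 90 PSp UMIs. Without the Gpnmb-led cluster it was 1.77 (adjusted p = 0.107). The effect on Cd36 in macrophages minus that in epithelium was -2.62 ± 0.35 (adjusted p = 0.0366), from epithelial sums of 59 and 34 UMIs in PCSp and 7 and 13 UMIs in PSp. The effect on Gpnmb in macrophages minus that in epithelium was 0.88 ± 0.12 (adjusted p = 0.0366), and minus that in fibroblasts 1.28 ± 0.21 (adjusted p = 0.0196). Without that cluster these were -0.68 and -0.30. Without the second PCSp mouse they were 0.94 (adjusted p = 0.0715) and 1.01 (adjusted p = 0.866).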

How the results depend on the processing

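Of 150 settings of the members' fold changes, 126 kept direction and side of the threshold, 16 turned direction and 8 became called. Without the Gpnmb-led cluster, an alternative chosen after seeing the data, the log2 fold changes in macrophages were -0.034 (Trem2), -0.49 (Cd9), -0.67 (Gpnmb), -0.32 (Lpl), -0.15 (Lgals3) and -0.35 (Fabp5), and the Gpnmb differences were -0.68 (epithelium) and -0.30 (fibroblasts); its cells held 93.4 to 98.7% of the macrophage Gpnmb UMIs. Lpl was -0.016 with doublets kept and Lgals3 -0.0064 with at most 10% mitochondrial UMIs. Leaving out each mouse gave -0.12 to 0.21 (Cd9), -0.26 to 0.81 (Spp1), -0.23 to 0.38 (Lpl), -0.22 to 0.20 (Lgals3) and -0.40 to 1.05 (Fabp5). Leaving a lone mouse assumes that it varies like the others. Gpnmb was called without the first PSp mouse (0.81, adjusted p = 0.00660) and the second (0.88, adjusted p = 0.00456), and without the low-count filter (0.86, adjusted p = 2.0e-08). Over 15 alternatives the adjusted p of Gpnmb ranged from 2.0e-08 to 0.867. Spp1 in T/NK cells was called in all 12 alternatives (-1.96 to -1.66; adjusted p from 1.9e-12 to 0.0188).

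Genes called in macrophages numbered 7, against 25 with DESeq2, 4 with doublets kept, 196 without the filter and 1 to 112 without 1 mouse. In other classes there were 37, against 247 with DESeq2, 716 without the filter and 103 to 593. In macrophage clusters there were 16, against 8 with DESeq2, 76 without the filter and 38 to 88. For differences between classes there were 31, against 338 without the filter and 47 to 335; the cause was not tested. Over 6 alternatives each, the adjusted p of the differences ranged from 5.0e-19 to 0.107 (Spp1), from 4.2e-11 to 0.00907 (Cd36), from 1.9e-07 to 1 (Gpnmb, epithelium) and from 2.0e-06 to 1 (Gpnmb, fibroblasts). The Gpnmb difference from epithelium was no longer called without the first (0.87, adjusted p = 0.104) or second PCSp mouse (0.94, adjusted p = 0.0715), nor that from fibroblasts without the first (1.53, adjusted p = 0.0609), the second PCSp (1.01, adjusted p = 0.866) or the second PSp mouse (1.12, adjusted p = 0.120). No paired analysis was possible because the labels give no replicate number shared between genotypes.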
